A study of Danio rerio with 20 samples.

Results

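Genes of the nucleolus and of nuclear transport were followed in zebrafish (Danio rerio) liver tumors and normal zebrafish livers. Members were all probes with 1 gene symbol that begins with nop, nol, gnl, npm, utp, polr1, nup, kpn, xpo, ipo or tnpo, or equals ncl, fbl, pes, bop1, wdr12, wdr43, dkc1, nolc1 or ran. The rule found 51 probes of 44 genes, among 15780 features made from 16512 probes, of which 5356 carried a gene name. Of the 44 genes, 23 act in the nucleolus and 21 in nuclear transport, while no probe carried fbl or wdr12 as its only symbol. The probes of a gene were averaged, which concerned the 6 genes with more than 1 probe.

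The study set 10 arrays of tumor RNA against 10 arrays of normal liver RNA. Per the labels the tumors had been induced by carcinogens, the fish were kept at about 27 °C, and 20 µg of total RNA was labelled for each channel. Each array carried a liver sample in Cy5 and normal zebrafish liver RNA in Cy3, so that all values are log2 ratios to a normal liver reference, likely liver sample over reference. No source used here states the direction of the ratio, and all signs below would turn if it ran the other way. The sources used here do not give the carcinogens, the strain, age or sex of the fish, or the number of fish behind the arrays, so p-values measure the spread between arrays, which may be partly technical. In whole tissue, a change in the number of cells of a type and a change of RNA per cell cannot be told apart.

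The nucleolus is where RNA polymerase I transcribes ribosomal RNA and where small nucleolar ribonucleoproteins (snoRNPs) modify it. Processing factors then cut and fold the transcript around ribosomal proteins into the precursors of the small and the large ribosomal subunit. These precursors, like messenger and transfer RNAs, leave the nucleus through nuclear pores built of nucleoporins, while importins carry ribosomal proteins and other cargo in, and exportins carry cargo out. The small GTPase Ran gives the transport its direction, being bound to GTP in the nucleus and to GDP in the cytoplasm. Growing cells, tumor cells among them, are known for large nucleoli.

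Of the 44 genes, 10 were higher in tumors and 0 were lower at an adjusted p under 0.05 (limma, Benjamini-Hochberg adjustment over all 15780 features). Over all features the share was 5.91% higher and 4.94% lower, and over named features it was 7.56% and 5.13%. The called genes were nolc1, gnl3, npm1a, nop2, dkc1 and pes of the nucleolus and kpna3, xpo1b, nup153 and nup93 of transport. Their differences, tumor minus normal in log2 units, lay between 0.37 and 1.04, a fold of 1.29 to 2.05. The median difference was 0.37 over the 23 nucleolar genes and 0.31 over the 21 transport genes, against -0.0086 over all features. In sign, 38 of the 44 differences were positive, against 49.1% of all features. An unadjusted p under 0.05 was reached by 15 genes in the positive and 2 in the negative direction, against 13.4% of all features in the positive and 12.7% in the negative direction. No gene had groups that did not overlap, a pattern found with tumors higher in 0.146% of all features and with tumors lower in 0.38%.

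**Figure D1:**
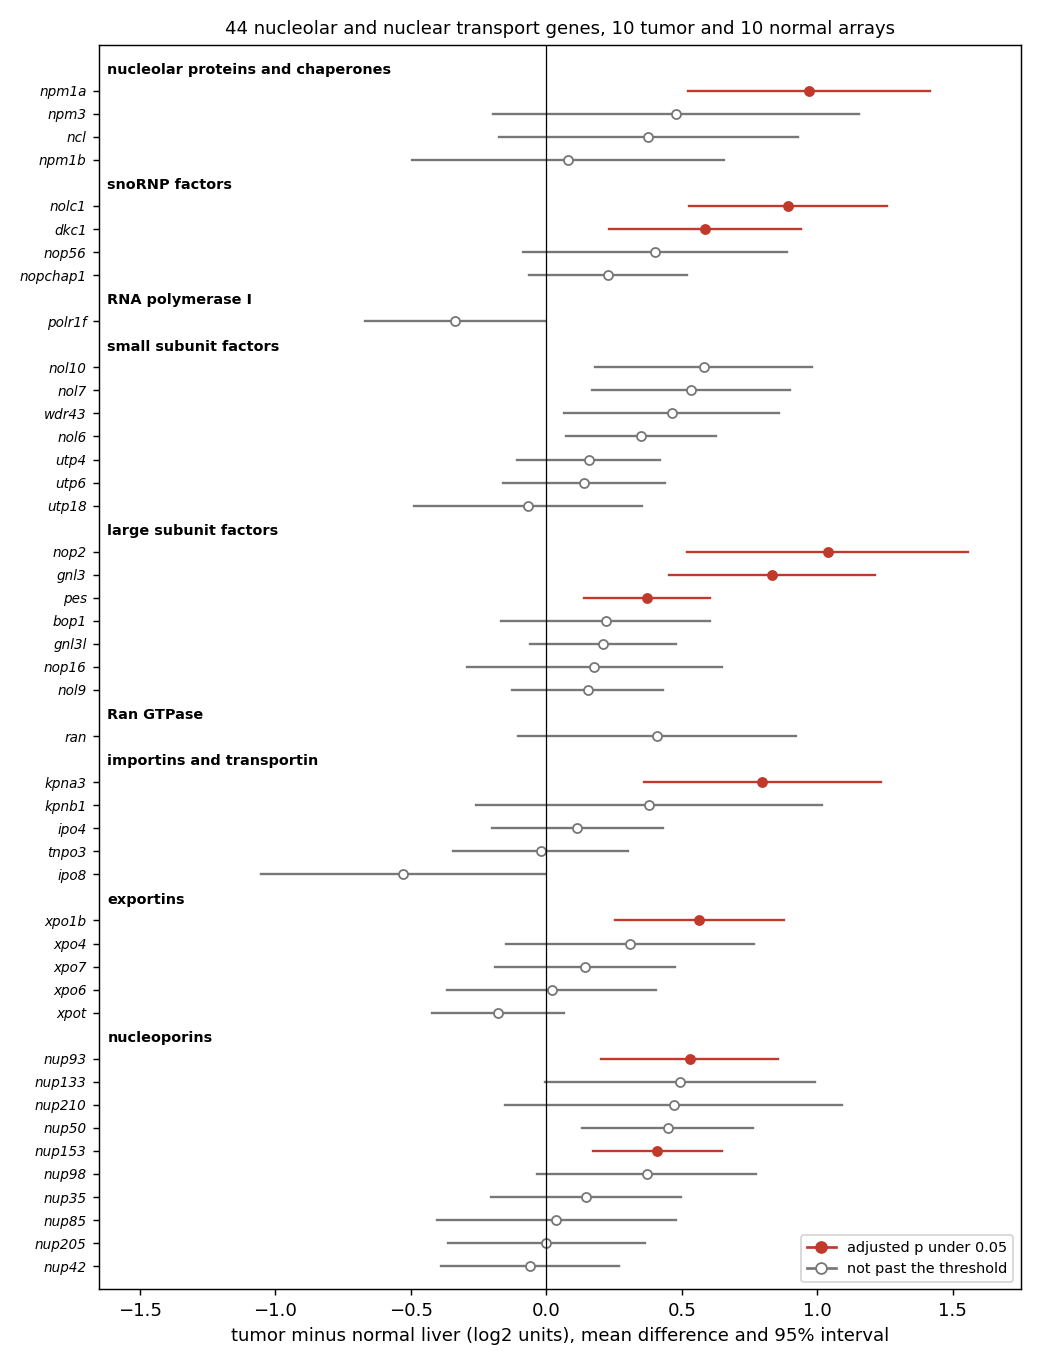
Difference of each of the 44 genes between 10 tumor and 10 normal arrays, in log2 units on the horizontal axis, with its 95% interval from limma and ordered by role from top to bottom. The 10 filled red points passed the adjusted threshold, all of them to the right of 0, while the open grey points did not pass, and ipo8 lay farthest to the left at -0.53.

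These counts stood beside 3 properties of the arrays. One was the share of dim spots, read as the share of values that equal the ratio of small whole numbers. It averaged 1.96% in tumors and 5.86% in normal livers, with medians of 1.32% and 6.38%. The range was 0.59% to 7.16% on tumor arrays and 2.55% to 7.87% on normal arrays. Share and group largely went together, so a fit with both cannot fully tell them apart. With this share as a covariate, 0 of the 44 genes passed in either direction (0.349% of all features did, and 0.076% in the higher direction), and the 10 called genes stood at 0.053 to 0.64 with adjusted p = 0.446 to 0.913 (limma). The median difference in that fit was 0.089 over the nucleolar genes and 0.24 over the transport genes, against -0.023 over all features, so that the order of both lists turned. At an unadjusted p under 0.05 there, npm1a and nup153 (2 genes) were positive and utp18 (1 gene) was negative. The median standard error of the 44 genes was 0.25 in that fit, against 0.18 without the share. Another was the level of ovary markers (11 of 22 listed were measured), whose array means ran from -1.70 to 1.38 in tumors, with a median of -0.38, and from -2.64 to 1.65 in normal livers, with a median of -1.95. Of the 11 markers 8 had a positive difference, the median difference was 1.42, 2 were called higher and 1 lower in tumors, and at an unadjusted p under 0.05 it was 6 higher and 1 lower. The 11 included ccnb1 (1.94 ± 0.65) and fbxo5 (-0.14 ± 0.21), cell division genes that are not particular to ovary. Tumor replicate 10 and normal replicate 8 held the highest ovary marker means. Without these arrays 13 of the 44 genes were higher in tumors and 0 lower, where 1113 of all 15780 features were higher and 753 lower. The last was that tumor replicates 1 and 10 stood apart from the other tumors in their values for these genes. Without them 7 genes were higher, 0 were lower and the median difference of the transport genes was 0.084. Over all features 954 were higher and 666 lower in that fit. Since these arrays were picked by their values for the same genes, part of the fall of the transport median follows from the choice.

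The labelled tissue was checked with hepatocyte markers, of which 8 of 9 measured (14 listed) were lower in tumors, with array means of -3.15 to -0.94 in tumors and of -0.25 to 0.49 in normal livers. Of 11 leukocyte markers 0 were called with limma and 0 had an unadjusted p under 0.05, with array means of 0.11 to 2.08 in tumors and of 0.032 to 1.38 in normal livers. Of 4 exocrine pancreas markers 0 were called while 3 had an unadjusted p under 0.05, all lower in tumors. All 4 pancreas differences were negative, with a median of -2.18. Array means of the pancreas list were -4.91 to 0.90 in tumors and -3.28 to 2.71 in normal livers. Of 11 bile duct and epithelium markers 2 were higher, epcam by 1.32 ± 0.33 and notch3 by 0.63 ± 0.18 (adjusted p = 0.0121 and 0.0293 with limma). Of these 11 differences 6 were positive and 5 negative, with a median of 0.073. Array means of the list were 0.11 to 1.07 in tumors and -0.18 to 1.09 in normal livers. Of 5 erythrocyte markers 1 was lower, hbae3 (-0.44 ± 0.14, adjusted p = 0.0386 with limma), and 3 had an unadjusted p under 0.05, all lower, with array means of -1.28 to 1.13 in tumors and of 0.026 to 0.72 in normal livers. The part of the markers in the differences below was not tested.

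Nucleolar proteins with chaperone functions were the first role. Npm1a encodes a nucleophosmin, an abundant histone and ribosome assembly chaperone. Its lowest, median and highest log2 ratio were -0.69, 0.078 and 1.54 on tumor arrays, against -1.55, -0.64 and -0.42 on normal arrays. The highest value belonged to tumor replicate 1, and 9 of 10 tumor arrays lay above all normal arrays, the exception being tumor replicate 9. The difference was 0.97 ± 0.21 (SE, n = 10 each; adjusted p = 0.00564 with limma), 1.96-fold. Its 2 probes gave 0.72 ± 0.27 and 1.22 ± 0.29, and taken singly the second passed (adjusted p = 0.00961) and the first did not (adjusted p = 0.0822).

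The duplicate gene npm1b stood at -1.71, -0.65 and 0.08 on tumor arrays and at -2.31, -0.81 and 0.35 on normal arrays. Its difference was 0.08 ± 0.28, with an interval of -0.50 to 0.66. The log2 ratio of npm1a minus that of npm1b averaged 0.96 ± 0.92 in tumors and 0.073 ± 0.65 in normal livers (SD, n = 10 each). This contrast between the duplicates differed between the groups by 0.89 (SE 0.36, two-sided permutation p = 0.0238, and 0.0238 when adjusted over 2 such contrasts, chosen after the values were seen). The pair set a called gene against an uncalled one, so part of the difference was given by the choice. The p-values do not account for that choice.

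Nucleolin, encoded by ncl, binds ribosomal RNA and its precursors. It stood at -0.43, 0.11 and 1.22 on tumor arrays, against -1.45, -0.25 and 0.86 on normal arrays, and the groups overlapped over most of their range. Its difference of 0.38 ± 0.27 did not pass (adjusted p = 0.383 with limma, interval -0.17 to 0.93). For npm3, a further nucleophosmin gene, values ran from -0.36 to 1.69 on tumor arrays and from -1.26 to 2.19 on normal arrays, with a difference of 0.48 ± 0.33 (adjusted p = 0.363 with limma). Its highest values were those of tumor replicate 10 and normal replicate 8, the arrays with the highest ovary markers. These arrays also had the highest means of the DNA replication and mitosis markers in their groups (1.76 and 0.60), and the part of either list was not tested. Without these arrays the difference was 0.59 (adjusted p = 0.0435 with limma).

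Among snoRNP factors, nolc1 had the smallest p of all 44 genes. Its product, a nucleolar phosphoprotein, is a chaperone of snoRNPs that shuttles between nucleolus and cytoplasm. Nolc1 stood at -0.16, 0.24 and 0.76 on tumor arrays, against -1.36, -0.73 and 0.043 on normal arrays. Of the 10 tumor arrays 7 lay above all normal arrays, all 10 lay above the normal median, and normal replicate 8 was the highest of the normal arrays. The difference was 0.89 ± 0.18 (adjusted p = 0.00253 with limma), 1.86-fold, and it passed without each of the 20 arrays in turn.

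Dkc1, the pseudouridine synthase dyskerin of H/ACA snoRNPs, stood at -0.38, 0.29 and 0.65 on tumor arrays and at -0.80, -0.42 and 0.42 on normal arrays. All 10 tumor arrays lay above the normal median, but only 2 lay above every normal array. The difference was 0.59 ± 0.17 (adjusted p = 0.0304 with limma). Leaving out tumor replicate 1 or 6 or normal replicate 1, 4, 6 or 7 ended the call (highest adjusted p 0.0557), and so did the exact rank-sum test (adjusted p = 0.0523). Nop56, a core protein of box C/D snoRNPs, had a difference of 0.40 ± 0.24 and nopchap1, which helps to assemble these particles, one of 0.23 ± 0.14 (adjusted p = 0.291 and 0.314 with limma).

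Of the RNA polymerase I subunits, polr1f alone was measured. It stood at -1.02, -0.075 and 0.10 on tumor arrays, against -0.23, 0.06 and 0.68 on normal arrays. Tumor replicates 1 and 10 held the low end and 8 of 10 tumor arrays lay below the normal median. The difference was -0.34 ± 0.16, which did not pass (adjusted p = 0.183 with limma).

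Factors of the small ribosomal subunit gave 0 calls among 7 genes, and 4 of the 7 had an unadjusted p under 0.05, all in the positive direction, where 13.4% of all features did. These were nol10 (0.58 ± 0.19), nol7 (0.53 ± 0.18), wdr43 (0.46 ± 0.19) and nol6 (0.35 ± 0.13), components of the machinery that processes the small subunit precursor, with adjusted p = 0.0554, 0.0544, 0.126 and 0.0951 with limma. For nol10, nol7 and nol6 all 10 tumor arrays lay above the normal median. In the exact rank-sum test, which called 12 of the 44 genes higher and 0 lower (6.14% of all features were called higher), nol7 and nol10 passed (adjusted p = 0.0249 and 0.0367). Utp4, utp6 and utp18, subunits of the small subunit processome, had differences of 0.16 ± 0.13, 0.14 ± 0.14 and -0.068 ± 0.20, with a widest interval of -0.49 to 0.35 for utp18.

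Factors of the large ribosomal subunit gave 3 calls among 7 genes, and all 7 differences were positive. Over all features 5.91% were called higher and 49.1% of differences were positive. Nop2, a methyltransferase of large subunit ribosomal RNA, had the largest difference of the 44 genes. It stood at -0.86, -0.17 and 1.55 on tumor arrays, against -1.75, -1.15 and -0.35 on normal arrays. All 10 tumor arrays lay above the normal median and 8 lay above all normal arrays, with tumor replicates 1 and 10 highest. The difference was 1.04 ± 0.25 (adjusted p = 0.0100 with limma), 2.05-fold, and 0.76 without tumor replicates 1 and 10.

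Gnl3 encodes the GTPase nucleostemin, known from stem cells and tumor cells. It stood at -1.15, -0.36 and 0.30 on tumor arrays and at -1.69, -1.29 and -0.60 on normal arrays. Again all 10 tumor arrays lay above the normal median, and 7 lay above all normal arrays. The difference was 0.83 ± 0.18 (adjusted p = 0.00531 with limma), 1.78-fold. The related GTPase gene gnl3l had a difference of 0.21 ± 0.13 (interval -0.06 to 0.48). The ratio of gnl3 minus that of gnl3l averaged -0.29 ± 0.43 in tumors and -0.91 ± 0.30 in normal livers (SD, n = 10 each). The contrast differed by 0.62 (SE 0.17, two-sided permutation p = 0.0014, and 0.0028 when adjusted over the 2 contrasts). Here too a called gene was set against an uncalled one after the values were seen, which the p-values do not account for.

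Pes, or pescadillo, and bop1 encode partners in a complex needed for the large subunit. Pes stood at -0.43, 0.043 and 0.18 on tumor arrays, against -0.81, -0.35 and 0.012 on normal arrays. Tumor replicate 9 was the low end, and the other 9 tumor arrays lay between -0.11 and 0.18. The difference of 0.37 ± 0.11 passed (adjusted p = 0.0345 with limma), but leaving out any 1 of tumor replicates 3 to 8 or of normal replicates 3, 4, 6, 7 and 10 ended the call (highest adjusted p 0.0631). Bop1 had a difference of 0.22 ± 0.19, nop16 of 0.18 ± 0.23 and nol9 of 0.15 ± 0.13, with adjusted p = 0.478, 0.656 and 0.501 with limma.

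**Figure D2:**
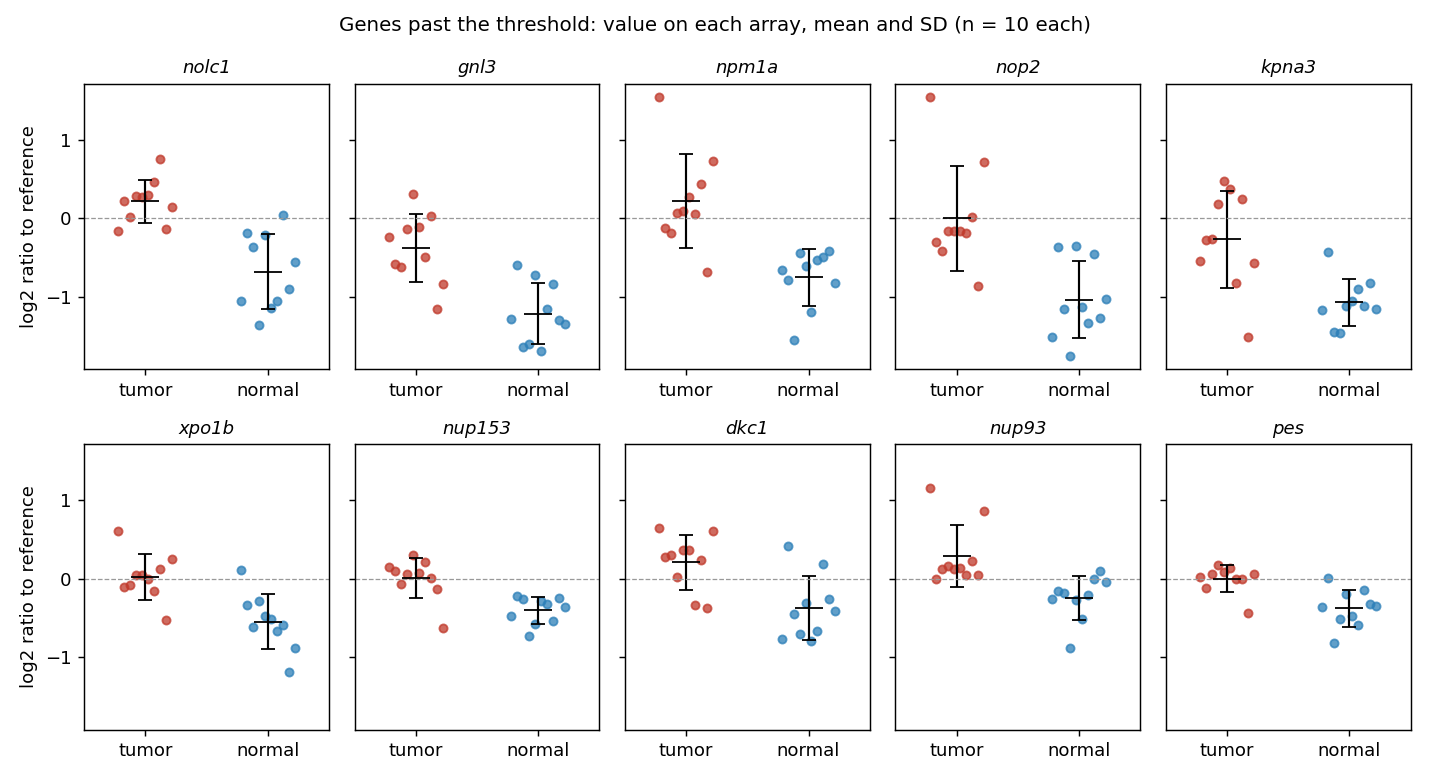
Log2 ratio to the reference on each array for the 10 called genes, with 10 tumor arrays (red, left) and 10 normal arrays (blue, right) in each panel, and the mean and SD in black. The groups overlap in every panel. Tumor means lie near the dashed line of the reference, the lowest being -0.38 for gnl3 and -0.27 for kpna3, and all normal means lie below that line.

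Ran itself was measured by 1 probe. It stood at -0.31, 0.46 and 1.27 on tumor arrays, against -0.54, -0.16 and 1.43 on normal arrays. The highest normal value, on normal replicate 3, exceeded all tumor arrays, and 9 of 10 tumor arrays lay above the normal median. The difference of 0.41 ± 0.25 did not pass (adjusted p = 0.306 with limma, interval -0.10 to 0.92).

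Of the 5 import receptor genes 1 was called higher, where 5.91% of all features were. With so few genes in a role, such a count is a description. Kpna3 encodes an importin alpha, the adaptor that binds nuclear localization signals. It stood at -1.51, -0.27 and 0.47 on tumor arrays and at -1.46, -1.12 and -0.44 on normal arrays. Tumor replicate 9 lay below all normal arrays, while 6 tumor arrays lay above all of them. The difference was 0.80 ± 0.21 (adjusted p = 0.0178 with limma), 1.74-fold.

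Its partner kpnb1, importin beta, stood at -0.98, -0.29 and 1.81 on tumor arrays, against -2.05, -0.13 and 0.21 on normal arrays. The highest tumor value was that of tumor replicate 9, and only 2 of 10 tumor arrays lay above the normal median. The mean difference was positive (0.38 ± 0.31, adjusted p = 0.456 with limma), while the tumor median lay below the normal median. For ipo8, an importin-beta-type receptor, values of -0.19, 0.26 and 1.86 on tumor arrays stood against 0.18, 0.90 and 2.09 on normal arrays. Its 9 low tumor arrays lay below the normal median and tumor replicate 1 lay above it. The difference was -0.53 ± 0.25 (adjusted p = 0.187 with limma), and -0.69 without tumor replicate 1 (adjusted p = 0.0474). Ipo4 and tnpo3, which imports splicing factors, had differences of 0.12 ± 0.15 and -0.021 ± 0.16, and the 3 probes of tnpo3 gave -0.20, 0.06 and 0.078.

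Of the 5 exportin genes 1 was called higher as well, where 5.91% of all features were. Xpo1b encodes a form of the exportin Crm1, which carries proteins with leucine-rich export signals, and ribosomal subunit precursors, out of the nucleus. It stood at -0.53, 0.022 and 0.60 on tumor arrays, against -1.18, -0.55 and 0.11 on normal arrays. All 10 tumor arrays lay above the normal median and 3 above all normal arrays. The difference was 0.56 ± 0.15 (adjusted p = 0.018 with limma), 1.48-fold.

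The other exportins did not pass. Xpo4 had a difference of 0.31 ± 0.22, xpo7 of 0.14 ± 0.16 and xpo6, which exports actin, of 0.02 ± 0.19. For xpot, the exportin of transfer RNAs, the difference was -0.18 ± 0.12 (adjusted p = 0.344 with limma). Its 2 probes gave 0.0034 and -0.36 and correlated at -0.029 over the 20 arrays.

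Of the 10 nucleoporin genes 2 were called higher, and 9 of 10 differences were positive. Over all features the shares were 5.91% and 49.1%. Nup153 encodes a protein of the nuclear basket. Its values were -0.62, 0.071 and 0.31 on tumor arrays and -0.72, -0.34 and -0.22 on normal arrays. Tumor replicate 10 held the low end, and the other 9 tumor arrays lay above all normal arrays. The difference was 0.41 ± 0.11 (adjusted p = 0.0247 with limma). It came from the mean of 2 probes that disagreed in size, at 0.75 ± 0.13 (adjusted p = 9.56e-04 when probes were tested singly) and 0.069 ± 0.15 (adjusted p = 0.802), with a correlation of 0.17 over the 20 arrays.

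Nup93, a scaffold protein of the inner ring of the pore, stood at 0.0009, 0.13 and 1.16 on tumor arrays, against -0.88, -0.19 and 0.11 on normal arrays. All 10 tumor arrays lay above the normal median and 7 lay above all normal arrays, with tumor replicates 1 and 10 highest. The difference was 0.53 ± 0.16 (adjusted p = 0.0333 with limma) and no longer passed when tumor replicate 10, normal replicate 4 or normal replicate 6 was left out (highest adjusted p 0.0611), or tumor replicates 1 and 10 together (0.35, adjusted p = 0.0651).

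The basket protein gene nup50 stood at -0.37, 0.11 and 1.12 on tumor arrays, against -0.48, -0.29 and 0.21 on normal arrays. With 9 of 10 tumor arrays above the normal median, its difference of 0.45 ± 0.15 missed the threshold (adjusted p = 0.0605 with limma) and passed the rank-sum test (adjusted p = 0.0249). Of the outer ring genes nup133 and nup85, the first had a difference of 0.49 ± 0.24 and the second of 0.037 ± 0.21. Of the inner ring genes nup205 and nup35, the first had a difference of 0.00017 ± 0.17, with an interval of -0.36 to 0.36, and the second of 0.15 ± 0.17. Nup98, whose product carries the phenylalanine-glycine repeats that fill the pore, had a difference of 0.37 ± 0.19 (adjusted p = 0.232 with limma), its 2 probes giving 0.22 and 0.52, the second of which passed when tested singly (adjusted p = 0.0248). The membrane protein gene nup210 had a difference of 0.47 ± 0.30 and nup42, of the cytoplasmic face, one of -0.06 ± 0.16.

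**Figure D3:**
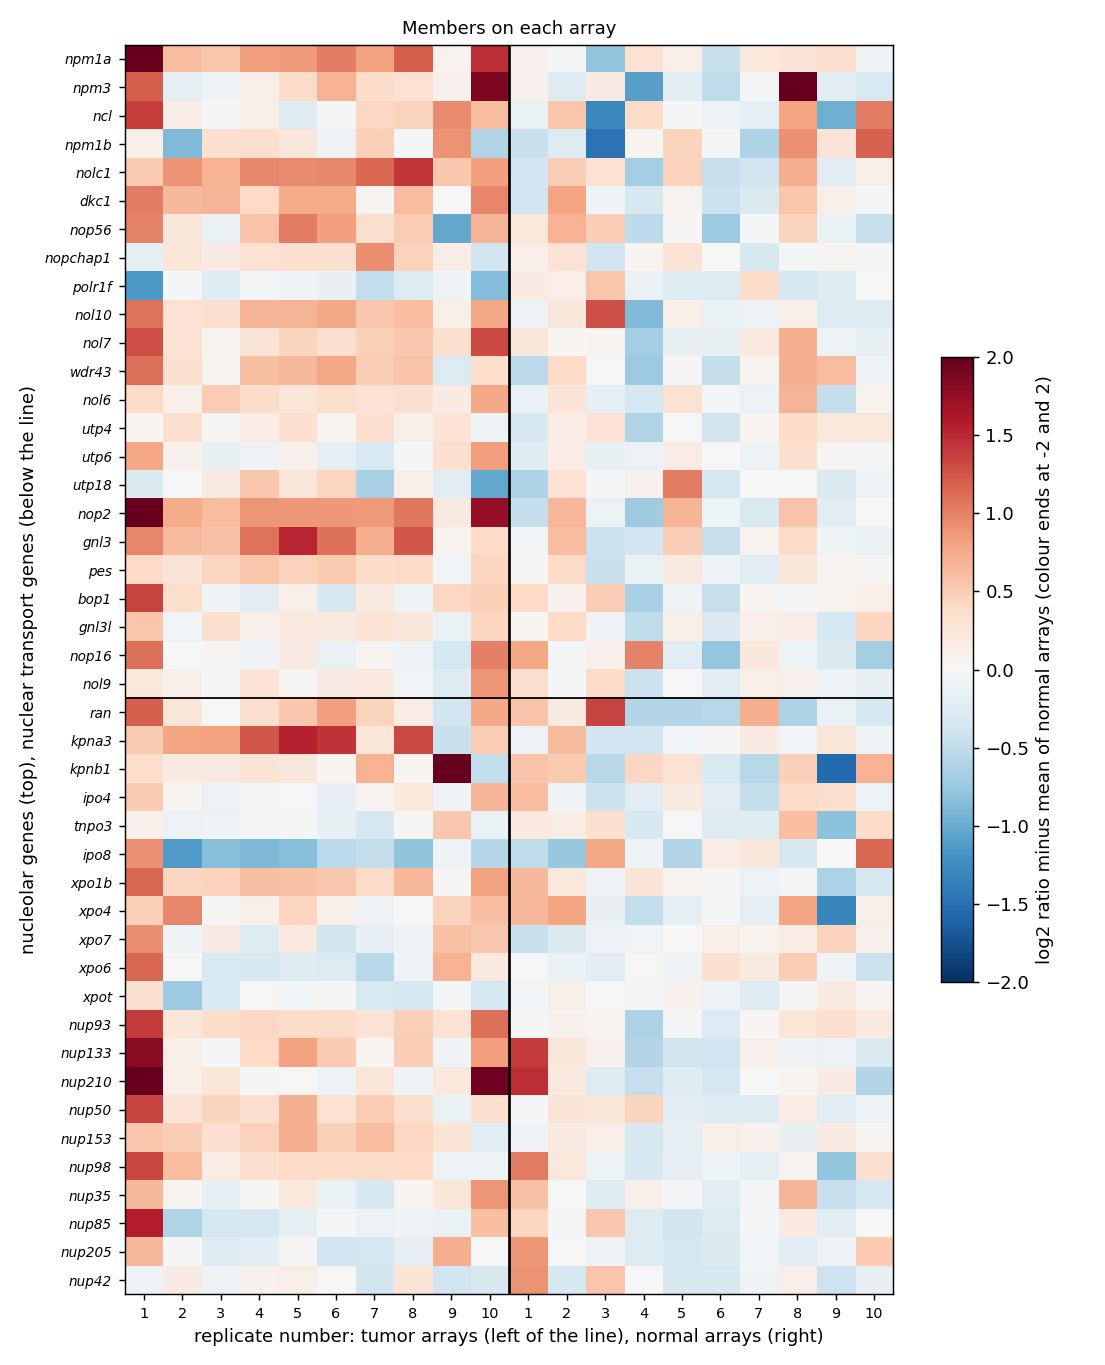
Each of the 44 genes (rows, ordered by role) on each of the 20 arrays (columns, tumor arrays left of the line), shown as a deviation in log2 units from the normal mean of the gene, with red above and blue below that mean and colours that end at -2 and 2. Tumor replicates 1 and 10 are the reddest columns, npm1a, nolc1, nop2 and gnl3 are red on most tumor arrays, and ipo8 is blue on 9 of 10 tumor arrays.

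The genes did not move alike on all arrays. Among the tumors, replicate 1 held the highest value of 21 of the 44 genes, 9 nucleolar and 12 of transport, where it held the highest value of 18.4% of all features. On that array 24 of the 44 genes lay above all normal arrays (54.5%, against 18.9% of all features), and on tumor replicate 10 it was 18 genes (40.9%, against 18.5%). On the other 8 tumors the count was 5 to 11. Tumor replicate 9 held the lowest value of 17 genes, 11 of them nucleolar, where it held the lowest value of 11.9% of all features. The same array had the largest dim share of the tumors (7.16%) and the highest mean of the hepatocyte markers among them (-0.94). Tumor replicates 10 and 1 had the highest means of the DNA replication and mitosis markers among the tumors (1.76 and 1.10). The leukocyte marker mean was also highest on tumor replicate 10 (2.08), while tumor replicate 1 (1.04) lay close to tumor replicate 4 (1.015). The part of these markers was not tested.

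When tumor replicates 1 and 10 were left out, 20 of 23 nucleolar differences were positive, with a median of 0.29, and 11 of 21 transport differences were positive, with a median of 0.084. Over all features 7806 of 15780 differences were positive in that fit. The arrays were picked by their values for these genes, so part of the change follows from the choice. The calls left were npm1a, nolc1, gnl3 and nop2 of the nucleolus and kpna3, xpo1b and nup153 of transport.

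The mean over the 23 nucleolar genes lay between -0.28 and 0.40 on tumor arrays, with a median of 0.018, and between -0.68 and 0.058 on normal arrays, with a median of -0.43. The highest normal arrays were replicate 8 (0.058), replicate 2 (-0.11) and replicate 5 (-0.22), which also had the smallest dim shares of the normal arrays (2.55%, 3.90% and 3.04%). The lowest tumor array was replicate 9 (-0.28). The mean over the 21 transport genes lay between -0.061 and 0.81 on tumor arrays and between -0.33 and 0.33 on normal arrays, where the highest was normal replicate 1. No test was made of these means, because the genes were chosen with results known.

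**Figure D4:**
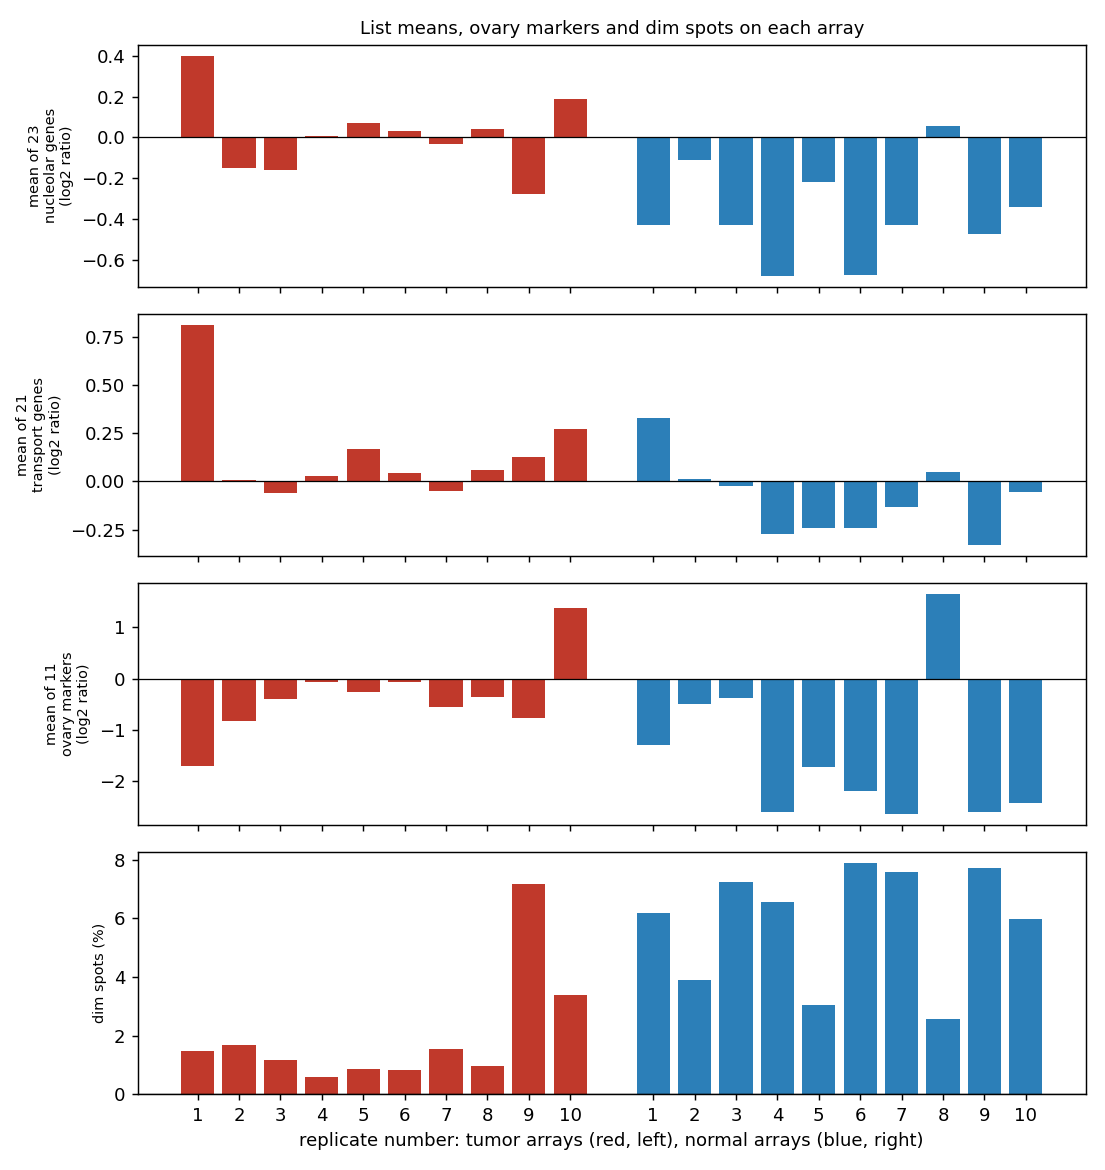
Mean log2 ratio over the 23 nucleolar genes, the 21 transport genes and the 11 ovary markers, and the percentage of dim spots, on each tumor array (red, left) and normal array (blue, right). The nucleolar mean is low on most arrays with many dim spots, tumor replicate 9 (7.16%) included, and the ovary markers are above 0 on tumor replicate 10 and normal replicate 8.

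Correlations between members describe the same pattern. Over the 10 tumor arrays the mean correlation of a pair was 0.15 for nucleolar genes (253 pairs) and 0.29 for transport genes (210 pairs), against 0.0058 over all pairs of named features. Without tumor replicates 1 and 10 the values were 0.13 and 0.022, against 0.0094 over all pairs of named features. Those arrays were picked by their values for the members, so part of this fall follows from the choice. Over the 10 normal arrays the mean correlations were 0.27 for nucleolar genes and 0.13 for transport genes, against 0.036 over all pairs of named features. Pairs share their arrays, so any property of an array, such as what the dim share reflects, can enter all of them.

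The normal livers give the level of each gene against the reference, since they were hybridised against normal liver RNA. Of the 44 genes, 15 lay below the reference in the 10 normal livers and 2 lay above it at an adjusted p under 0.05 (limma), against 13.6% of all features below and 11.4% above. Of the 15 genes below, 12 were nucleolar. Gnl3 was the lowest at -1.22 ± 0.13 (SE), followed by kpna3 at -1.07 ± 0.15 and nop2 at -1.04 ± 0.18, and the 2 genes above were ipo8 at 0.94 ± 0.18 and nup205 at 0.37 ± 0.12. The 10 genes called higher in tumors had tumor means between -0.38 and 0.29, against normal means between -1.22 and -0.24, all below 0. Of all 933 features called higher, 77.7% had a normal mean below 0. The normal means of the 10 genes also enter the difference by which these genes were called, so their position is a description. Of the 10, 9 lay below the reference in normal liver at the adjusted threshold, nup93 being the exception, and of all 933 features called higher 49.4% did. Of the 11 ovary markers, 8 were also below the reference in normal livers. Since the liver sample was always in Cy5, effects of the dye on a gene cannot be told apart from differences to the reference. The dyes were placed alike on tumor and normal arrays, but whether dye effects were equal in both groups was not tested.

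**Figure D5:**
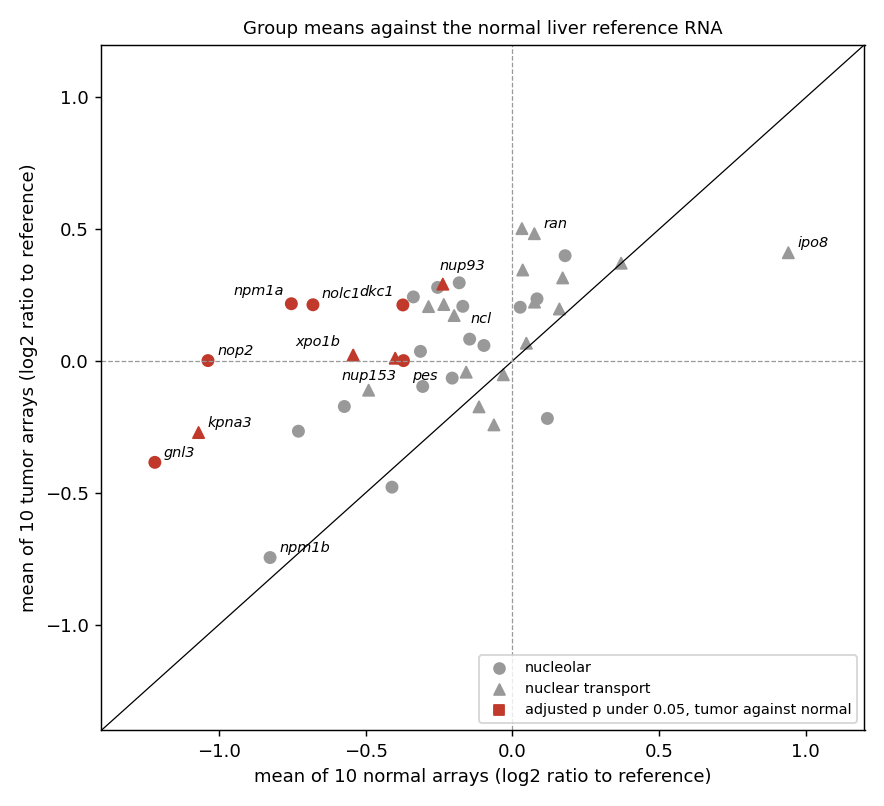
Mean log2 ratio of each of the 44 genes on the 10 tumor arrays (vertical axis) and the 10 normal arrays (horizontal axis), with circles for nucleolar and triangles for transport genes and red for the 10 called genes. The diagonal marks equal means and the dashed lines the reference. The called genes lie left of the vertical dashed line, at normal means of -1.22 to -0.24, and ipo8 lies farthest right at 0.94.

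Other genes of both pathways, from lists that name no member, were read from the same fit. The lists were made with earlier results of these data known, so their counts are a description. Of 38 measured ribosome biogenesis genes (124 listed) 7 were higher (18.4%) and 1 was lower (2.63%), with a median difference of 0.20. Over named features 7.56% were higher and 5.13% lower. At an unadjusted p under 0.05 (limma), 12 of the 38 were higher and 2 lower, against 882 and 654 of 5356 named features. Gar1, which joins dyskerin in H/ACA snoRNPs, was higher by 1.12 ± 0.28 (adjusted p = 0.0124 with limma), beside 0.59 for dkc1. Rrp12, a factor of pre-ribosome export, was higher by 0.86 ± 0.24, ppan, of the large subunit, by 0.80 ± 0.21, exosc4, a subunit of the RNA exosome, by 0.69 ± 0.20, and eif6, which keeps the subunits apart, by 0.62 ± 0.19. Ubtf, a transcription factor of RNA polymerase I, was higher by 0.56 ± 0.13 (adjusted p = 0.008 with limma), while the polymerase subunit gene polr1f was at -0.34. The helicase gene ddx56 was higher by 0.49 ± 0.13, and rsl1d1 was lower (-0.73 ± 0.18, adjusted p = 0.0126 with limma). Leaving out normal replicate 10 ended the call of exosc4 (adjusted p = 0.0514). Leaving out tumor replicate 6, 8 or 10 or normal replicate 4, 6, 7 or 10 ended that of eif6 (highest adjusted p 0.0661). In the fit with the dim share, the median of the list was 0.014, and 0 genes were called by limma, with 1 in each direction at an unadjusted p under 0.05.

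Of 23 measured genes of nuclear transport and the nuclear envelope (63 listed) 2 were higher (8.70%) and 0 were lower. The median difference was 0.40. The share called higher was near that of named features (7.56%). At an unadjusted p under 0.05 (limma), however, 12 of the 23 were higher and 0 lower, against 882 and 654 of 5356 named features. Nutf2, the import factor of Ran, was higher by 0.51 ± 0.13 (adjusted p = 0.0129 with limma), and ddx39ab, a helicase of messenger RNA export, by 1.39 ± 0.37 (adjusted p = 0.0171 with limma). In the fit with the dim share, the median of this list was 0.34, and 0 genes were called by limma or had an unadjusted p under 0.05. The DNA replication and mitosis markers, which tell of dividing cells, were called higher for 3 of 15 measured genes (20.0%) and lower for 0. The 3 were pcna, slbp and anln, and over named features 7.56% were higher. Of the 15 differences 11 were positive and 4 negative, with a median of 0.19. Tumor replicate 10 stood at 4.54 for mcm3 and 3.73 for mcm6, against tumor medians of 0.46 and 0.68. Array means of the list were 0.0021 to 1.76 on tumor arrays and -0.42 to 0.60 on normal arrays.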

How the data were processed

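The deposited values are log2 ratios of the 2 channels of each array, and per the labels channel 1 held the liver sample (Cy5) and channel 2 normal liver RNA (Cy3). The log base was read from the values. The authors' background correction, spot filters and normalization were not given in the sources used here, and 0 values were missing. Groups came from the titles (C for normal, T for tumor, matching the design text). Of 16512 probes, 6088 had 1 symbol in GEO's platform annotation, 75 several and 10349 none. All 51 member probes matched RefSeq (GRCz12tu, for names alone), and 1 symbol of the whole table was updated.

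Features were fitted with lmFit and eBayes of limma 3.58.1 (R 4.3.3), adjusted over 15780 features at 0.05. The fit was tested on simulated data, drawn for each feature independently from a normal distribution. Those data held no effects shared within an array, so the test does not bear on such effects. Intervals are at the 95% level. Contrasts of related genes used 100000 resamples (scipy 1.17.1). The share of dim spots counts values that lie, once an array's own constant is removed, at the ratio of whole numbers no larger than 10 (tolerance 0.00011 in log2). The rule for naming took all called members, ranges for the 5 smallest p of each class and for ncl, ran, dkc1 and pes, the 3 largest differences each way, probes of opposite sign, and called genes of the other lists. The remaining members were described for their roles. Members, lists and rules were chosen with earlier results of these data known. The number of arrays limits the precision. Same-numbered tumor and normal arrays were not treated as paired (correlation of deviations -0.15 to 0.12 over 10 pairs). Tried alternatives were centring, scaling, quantile normalization, the dim share, the replicate number, array weights, single probes, left-out arrays and the exact rank-sum test.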

Additional observations from a re-analysis of the deposited data

Results flagged for a closer look

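Single arrays far from the rest of their group were found in 13 of 88 groups of 10 arrays (44 genes in tumor and normal arrays). For independent, normally distributed values about 5% of groups would be flagged. The genes share their arrays, and tumor replicate 10 held the lowest tumor value of 30.1% of all features. The share of groups flagged over all features was not taken, so the count cannot be called particular to these genes. In each, the gap to the nearest array, as a share of the range of the group, exceeded Dixon's critical value. Tumor replicate 1 was the high array for bop1 (1.54, next 0.66), ipo8 (1.86, next 0.85), nup133 (1.52, next 0.55) and nup98 (1.13, next 0.41). Tumor replicate 9 was the high array for kpnb1 (1.81, next 0.21) and tnpo3 (0.51, next 0.065), and the low array for pes (-0.43, next -0.11). Tumor replicate 10 was the high array for nol9 (0.97, next 0.35) and the low array for nup153 (-0.62, next -0.13). Among normal arrays, replicate 1 was high for nup133 (1.11, next -0.067) and nup210 (1.51, next 0.23), replicate 3 for nol10 (0.95, next -0.11) and replicate 8 for npm3 (2.19, next -0.0093). The ovary marker mean of normal replicate 8 was 1.65, the highest of all 20 arrays. Its mean of the DNA replication and mitosis markers was 0.60, the highest of the normal arrays. The part of either list in the npm3 value was not tested.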

How the results depend on the processing

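With the dim share as a covariate 0 of 44 genes were called higher, 0 nucleolar and 0 of transport. All 10 called genes kept a positive difference there. The dim share largely went together with the group, so that fit cannot fully tell them apart. With the replicate number as a block 5 genes were called higher, 1 of them of transport, while dkc1, pes, kpna3, nup93 and nup153 missed the threshold. Of the 10 tumor arrays 1 correlated best with the normal array of its own number. The sources used here do not say whether samples of the same number shared more than that number. Array weights gave 17 higher and 1 lower (ipo8), with 8 transport genes higher and 1 gene above the reference. Over all 15780 features, 1965 were called higher with array weights, 1578 after centring and scaling and 668 with the replicate block, against 933 in the main fit. The count among the 44 genes moved in the same direction as that over all features in these fits. Without each array in turn, 7 to 13 genes were higher and 0 to 1 lower, with 4 to 9 nucleolar and 3 to 5 transport genes higher, and 7 of the 10 calls passed every time. Over all features, 715 (without tumor replicate 8) to 1154 (without tumor replicate 9) were higher in those fits. The count of 13 genes came without tumor replicate 9 and without normal replicate 8, where 1154 and 1095 of all features were higher. The other alternatives gave 7 to 14 higher and 0 lower (14 after centring and scaling, 7 without tumor replicates 1 and 10). Over all features, 954 (without tumor replicates 1 and 10) to 1578 (after centring and scaling) were higher there. With probes tested singly, a gene counted if any of its probes passed (11 genes), and 1178 of 16512 probes were higher. No called gene changed sign in any alternative. Of the uncalled genes, 15 had the other sign in at least 1 alternative without being called there. Signal over background is not in the table, so a dim probe could not be told from a bright one.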
